A study of Mus musculus with 4 samples.

Results

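The 10 smooth muscle contractile genes described here were Acta2, Actg2, Myh11, Tagln, Cnn1, Lmod1, Smtn, Mylk, Des and Myocd. They were taken by symbol from the 17780 genes of a mouse lung expression table, 1 row per gene, and all 10 were present. The lungs came from male C57BL/6 mice (C57BL/6J in the methods) that were 6 to 7 weeks old at purchase and were given drugs orally on 5 days per week for 4 weeks. The vehicle group received carboxymethylcellulose only, the amiodarone group 300 mg/kg/day of amiodarone, an antiarrhythmic known to injure the lung, the dabigatran group 60 mg/kg/day of dabigatran etexilate, the oral prodrug of a thrombin inhibitor, and the amiodarone + dabigatran group both drugs. The methods place lung collection on day 26, whereas the labels give 28 days of treatment. Poly(A)+ RNA of left lung tissue was sequenced with 1 library per group, so that no value below has a replicate and no p-value can be given.

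Smooth muscle contracts when myosin II filaments pull on actin filaments that are anchored in dense bodies and at the cell membrane. The switch is phosphorylation of the myosin light chain by myosin light chain kinase, and thin-filament proteins such as calponin and caldesmon tune the pull. Many of the genes are switched on together by serum response factor and its partner myocardin, which act through a short DNA element named the CArG box. In the lung, smooth muscle lies around airways and blood vessels, and pericytes, myofibroblasts and some alveolar duct cells share part of the programme. The tissue was bulk lung, in which fewer cells of a type and less RNA per cell cannot be told apart.

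CArG boxes are shown because they are the sequence element that the programme is best known for, and because Acta2 had the lowest amiodarone to vehicle ratio of the 10 genes. The motif, CC then a run of 6 A or T then GG, was searched in RefSeq promoter windows of GRCm38.p6 that run from 250 bases before to 50 bases after a transcript start, and since its reverse complement has the same form 1 pass covers both strands. The strict form allows A and T alone between CC and GG, the relaxed form also allows 1 G or C there, and every strict match is thus a relaxed match. Windows were found for 6 of the 10 genes, Acta2, Cnn1, Lmod1, Smtn, Mylk and Des. None of the 6 windows held the strict form, and Acta2 was the only 1 with the relaxed form, which it held at 2 places. Capitals mark the motif and its flanks are in lower case, each written 5′ to 3′ on the strand of the gene:
Acta2, chr19:34255438-34255467, minus strand, motif starting 84 bases before the start: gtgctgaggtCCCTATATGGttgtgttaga
Acta2, chr19:34255388-34255417, minus strand, motif starting 34 bases before the start: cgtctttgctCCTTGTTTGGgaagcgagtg
Myl9, chr2:156775293-156775322, plus strand, strict form: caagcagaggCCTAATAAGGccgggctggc
Myl6, chr10:128493040-128493069, minus strand, strict form: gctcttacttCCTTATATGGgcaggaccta
Vcl, chr14:20929161-20929190, plus strand, strict form: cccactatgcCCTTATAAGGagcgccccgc

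The last 3 lines are the strict matches among 26 other genes of the contractile apparatus, of which 23 had windows. They are listed here because they let the relaxed Acta2 sites be read against the full motif. Of 32851 promoter windows of all genes, 1.63% held the strict and 9.98% the relaxed form. Of the 31 windows of the other apparatus genes, 3 held the strict and 8 the relaxed form (25.8%). A match is a string of letters in a window and not a site shown to be bound, and the GENCODE M21 annotation places both Acta2 matches inside an Acta2 exon and the Myl6 match inside a Myl6 exon.

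Total estimated reads per library ranged from 17498486 with vehicle to 18903401 with amiodarone + dabigatran. Values are FPKM, reads corrected for transcript length and library depth, so that levels can be compared between genes as well as between libraries. Ratios carry a 95% counting interval (exact Clopper-Pearson, from the reads of both libraries). It covers counting error only, and it compares 2 libraries and not 2 treatments. A ratio is called beyond counting error where its interval leaves out 1. A single secretory gene of club cells, Scgb1a1, took 21.0% of all FPKM on vehicle, 13.3% on amiodarone, 17.6% on dabigatran and 17.1% on both drugs, a difference that affects any scaling by summed FPKM.

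With vehicle, the 10 genes summed to 698.74 FPKM, and Acta2 at 180.84 and Tagln at 160.46 FPKM were the highest of them. Des followed with 98.99, Cnn1 with 69.34 and Mylk with 57.95 FPKM. Actg2 at 44.86 and Myh11 at 43.95 FPKM had overlapping counting intervals and could not be ordered. Below them came Smtn with 33.87, Lmod1 with 7.36 and, lowest, Myocd with 1.12 FPKM. The order was not the same in every library. With amiodarone the intervals of Acta2 and Tagln overlapped, Mylk (48.71 FPKM) stood above Cnn1 (43.33 FPKM), and Actg2 (27.97 FPKM) overlapped Smtn (28.61 FPKM) instead of Myh11.

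**Figure D1:**
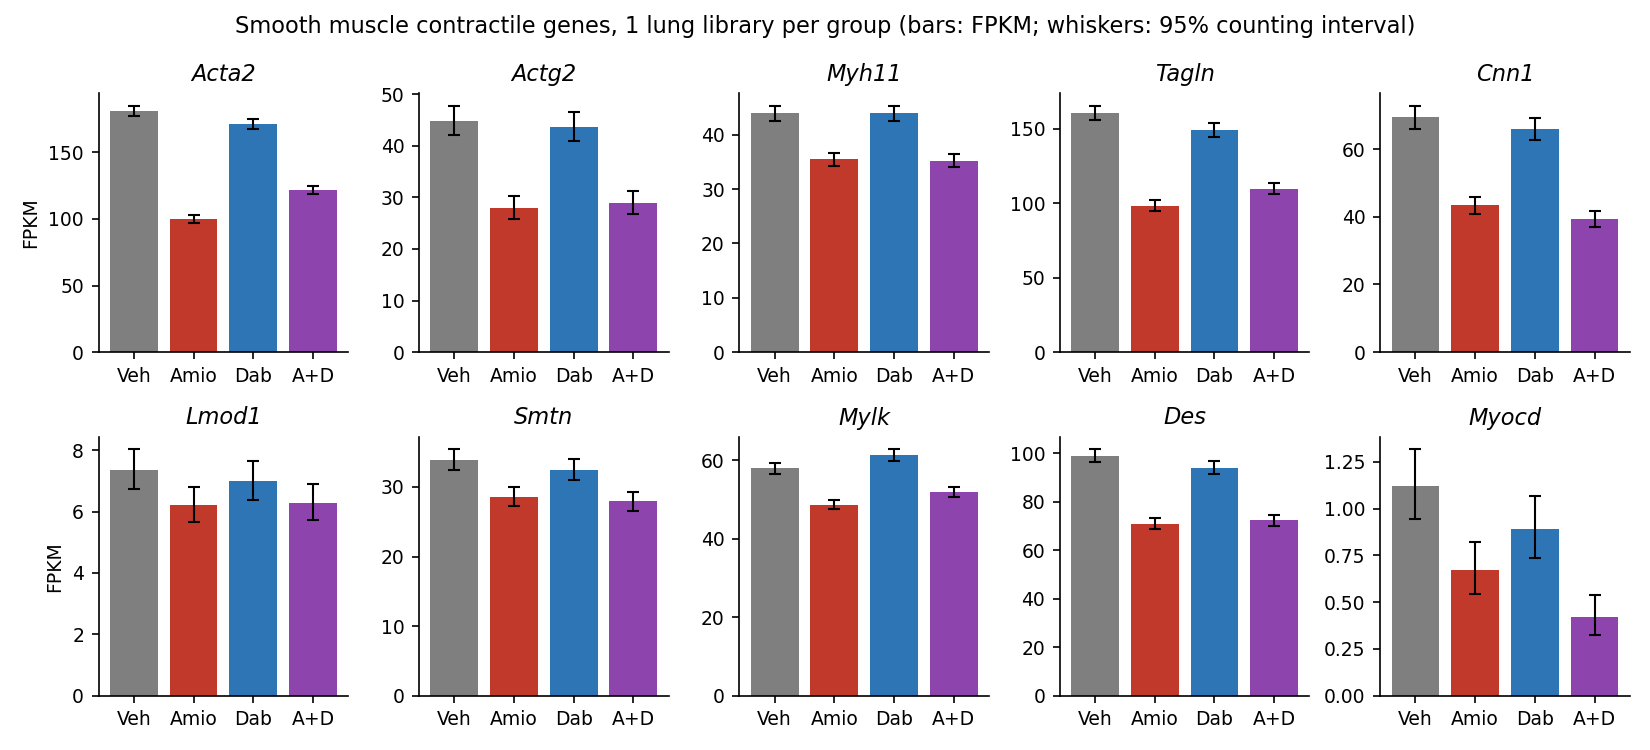
FPKM of each of the 10 genes (vertical axis, its own scale per gene, from 0) in the vehicle (Veh), amiodarone (Amio), dabigatran (Dab) and amiodarone + dabigatran (A+D) libraries. Bars are single libraries and whiskers 95% counting intervals. Both amiodarone-treated libraries sit below both libraries without amiodarone for every gene, as for Acta2 at 99.91 and 121.44 against 180.84 and 171.05 FPKM.

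The first comparison asked what amiodarone alone did to the programme. All 10 genes were lower with amiodarone than with vehicle, and all 10 ratios were beyond counting error, with none higher. In this comparison 30.1% of the 13402 genes tested (those reaching 1 FPKM in any library compared) were lower beyond counting error and 19.6% higher. The differences were unequal: the actins, Tagln, Cnn1 and Myocd stood at 0.552 to 0.625 of vehicle, and Myh11, Mylk, Lmod1 and Smtn at 0.808 to 0.845. Of the 10 genes, 5 were at least 1.5-fold lower and none at least 1.5-fold higher, beside 7.22% of all genes tested lower and 5.49% higher by that fold. On the log2(FPKM + 1) scale the median difference of the 10 genes was -0.41 and that of all genes tested -0.05. The sum of the 10 genes was 460.2 FPKM with amiodarone.

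Actins form the thin filament. Acta2, α-smooth muscle actin, read 180.84 FPKM on vehicle, 99.91 on amiodarone, 171.05 on dabigatran and 121.44 on both drugs. Its amiodarone to vehicle ratio was 0.552 (0.533 to 0.573), and 2.92% of all genes tested had a lower one. Actg2, γ-smooth muscle actin, which prevails in visceral muscle, read 44.86, 27.97, 43.64 and 28.99 FPKM in the same order of libraries. Its ratio was 0.623 (0.564 to 0.689). For both actins the libraries with amiodarone lay below those without, but Acta2 was higher with the combination than with amiodarone alone and Actg2 was nearly level between these libraries. Acta2 lies at chr19:34240336-34255585 and Actg2 at chr6:83512909-83536251 in GRCm38.p6.

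Myh11 encodes the smooth muscle myosin heavy chain, the motor of the thick filament (chr16:14194527-14292188). It read 43.95 FPKM on vehicle, 35.50 on amiodarone, 43.93 on dabigatran and 35.19 on both drugs, which is a plain split by amiodarone. The amiodarone to vehicle ratio of Myh11 was 0.808 (0.772 to 0.845), which does not overlap the interval of either actin. Within the vehicle library there were 4.11 FPKM of Acta2 per FPKM of Myh11, and within the amiodarone library 2.81. With dabigatran and the combination this quotient was 3.89 and 3.45. Quotients within a library do not depend on how libraries are scaled to each other. Des against Myh11 gave a narrower range, 2.25, 2.0, 2.14 and 2.06 in vehicle, amiodarone, dabigatran and the combination.

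The proteins that dress or tune the thin filament differed among themselves. Tagln, transgelin or SM22, an actin-bundling protein, read 160.46, 98.36, 148.98 and 109.65 FPKM for vehicle, amiodarone, dabigatran and the combination, and its amiodarone to vehicle ratio was 0.613 (0.584 to 0.643). Cnn1, calponin 1, which inhibits the myosin ATPase on actin, read 69.34, 43.33, 65.97 and 39.26 FPKM with a ratio of 0.625 (0.579 to 0.675). Both resembled the actins in size. Lmod1, leiomodin 1, which nucleates actin filaments, read 7.36, 6.21, 7.0 and 6.29 FPKM with a ratio of 0.844 (0.741 to 0.960). Smtn, smoothelin, a protein of fully contractile smooth muscle, read 33.87, 28.61, 32.46 and 27.92 FPKM with a ratio of 0.845 (0.791 to 0.902). These 2 genes were closer to Myh11 than to Tagln. The genes lie at chr9:45929628-45936058 (Tagln), chr9:22099221-22109221 (Cnn1), chr1:135324813-135368065 (Lmod1) and chr11:3517522-3539292 (Smtn). In GENCODE M21, antisense Gm48529 covers 62.4% of the exon bases of Tagln and Gm11946, on the opposite strand, 16.3% of those of Smtn, and since the use of strand in counting is not given in the sources used here, reads of these pairs cannot be told apart.

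Mylk, the myosin light chain kinase (chr16:34745199-35002436), read 57.95 FPKM on vehicle, 48.71 on amiodarone, 61.34 on dabigatran and 51.82 on both drugs. Its amiodarone to vehicle ratio was 0.841 (0.811 to 0.871), and it was the only gene of the 10 that was higher with dabigatran than with vehicle. A nonmuscle form of the kinase comes from the same gene and is not separated in a value per gene. Des, desmin, the intermediate filament of muscle (chr1:75360292-75368579), read 98.99, 70.93, 94.10 and 72.38 FPKM with a ratio of 0.717 (0.687 to 0.747). Desmin is abundant in cardiac muscle too, whose markers are given below. Myocd, myocardin, the coactivator that drives the programme (chr11:65173608-65269989), read 1.12, 0.67, 0.89 and 0.42 FPKM from 146, 95, 115 and 62 reads. Its ratio of 0.598 had the widest interval of the 10 (0.457 to 0.780), which spans the ratios of the actins and of Des. In bulk lung, the muscle type that the Myocd reads came from cannot be told.

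**Figure D2:**
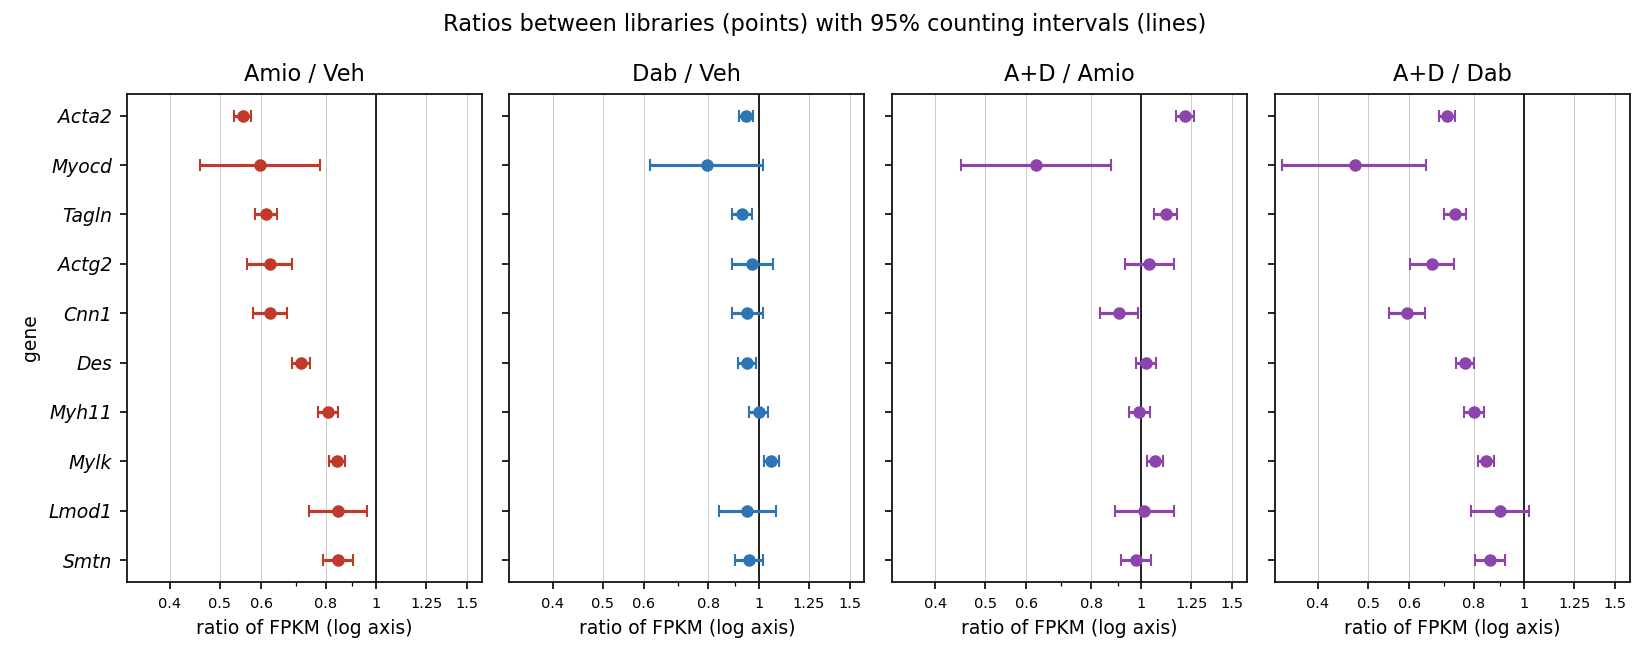
Ratio of FPKM (horizontal log axis) for the 10 genes (rows) in 4 comparisons: amiodarone over vehicle, dabigatran over vehicle, the combination over amiodarone and the combination over dabigatran. Points are ratios and lines 95% counting intervals, with the vertical line at 1. The amiodarone over vehicle ratios run from 0.552 to 0.845, the dabigatran over vehicle ratios cluster near 1, and Myocd, below 1 FPKM in both libraries of the last 2 panels, has the widest lines.

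The second comparison asked what dabigatran did without amiodarone. The 10 genes were close to vehicle, from 0.795 for Myocd to 1.06 for Mylk. Acta2 at 0.946 (0.916 to 0.976), Tagln at 0.928 (0.889 to 0.969) and Des at 0.951 (0.914 to 0.988) were lower beyond counting error, and Mylk at 1.06 (1.02 to 1.09) was higher. The other 6 intervals included 1, among them that of Myh11 at 0.9995 (0.957 to 1.04). Thus 3 of 10 were lower and 1 higher, where 13.4% of the 13373 genes tested were lower and 15.2% higher. None of the 10 differed by 1.5-fold, as did 1.52% of all genes downward and 1.45% upward. The median of the 10 was -0.07 on the log2(FPKM + 1) scale and their sum 669.36 FPKM. Scaled to equal summed FPKM, as in TPM, the split over all genes was 6.07% lower and 29.1% higher, and no gene of the 10 was then lower beyond counting error. The same scaling turned the split over all genes for amiodarone against vehicle to 19.3% lower and 30.8% higher, and left 9 of the 10 genes lower.

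The third comparison set the combination against amiodarone alone, that is, dabigatran added to amiodarone. Acta2 was higher with the combination, at 1.22 times its amiodarone level (1.17 to 1.26), and so were Tagln at 1.11 (1.06 to 1.17) and Mylk at 1.06 (1.03 to 1.10). Cnn1 was lower at 0.906 (0.831 to 0.988). Actg2 at 1.04, Myh11 at 0.991, Lmod1 at 1.01, Smtn at 0.976 and Des at 1.02 were within counting error. Of the 9 genes that reached 1 FPKM, 3 were thus higher and 1 lower, where 21.2% of the 13261 genes tested were higher and 15.0% lower. None of the 9 reached 1.5-fold, which 2.46% of all genes reached upward and 2.07% downward. Myocd, under 1 FPKM in both, stood at 0.627 (0.448 to 0.872). Median differences were 0.03 for the 9 genes and 0.03 for all genes tested. Rescaled by median ratios or as TPM, Mylk came within counting error at 1.04 and 1.03.

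The levels with both drugs stayed under those of vehicle for every gene. Against vehicle, Acta2 with the combination was at 0.672 (0.649 to 0.695), Tagln at 0.683 (0.652 to 0.715), Cnn1 at 0.566 (0.523 to 0.613) and Myocd at 0.375 (0.274 to 0.508), and the sum of the 10 genes was 493.36 FPKM against 698.74. Mylk was nearest to its vehicle level at 0.894 (0.864 to 0.926).

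The last comparison, the combination against dabigatran alone, shows amiodarone on a background of dabigatran and shares no library with the first. All 10 genes were lower with the combination. Of the 9 with at least 1 FPKM, 8 were lower beyond counting error and none higher, and Lmod1 at 0.899 (0.789 to 1.02) was within it. Over the 13379 genes tested, 23.5% were lower and 19.5% higher. Cnn1 at 0.595 (0.549 to 0.644) and Actg2 at 0.664 (0.602 to 0.733) were at least 1.5-fold lower, a size that 4.39% of all genes reached downward and 4.43% upward. Acta2 stood at 0.710 (0.686 to 0.735), Tagln at 0.736 (0.702 to 0.771), Des at 0.769 (0.738 to 0.802), Myh11 at 0.801 (0.765 to 0.839), Mylk at 0.845 (0.816 to 0.874) and Smtn at 0.860 (0.805 to 0.919). Myocd, below the limit of 1 FPKM, had the lowest ratio, 0.472 (0.341 to 0.648). The median of the 9 genes was -0.37 and that of all genes -0.01.

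All 10 genes were lower in both comparisons of amiodarone. The log2 ratios of the 10 genes with and without dabigatran correlated with r = 0.747 over n = 10 genes, given as a description, since the genes of each comparison share a pair of libraries. Acta2 had the lowest ratio without dabigatran, and Myocd and Cnn1 had the lowest with it. Myh11, Mylk, Lmod1 and Smtn were the 4 genes nearest to 1 in both.

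The genes have many reads, and counting intervals narrow with reads. Among genes with at least 450 reads in both libraries, a limit set after the reads of these genes were seen, 30.9% of 7125 were lower with amiodarone than with vehicle and 28.2% of 7268 were lower with the combination than with dabigatran. Of the 9 contractile genes with that many reads, 9 and 8 were lower.

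Each smooth muscle form was then placed within its own gene family, which also holds forms of other muscle and of nonmuscle cells. Acta2 was 5.11% of the summed FPKM of the 6 actins on vehicle, 3.28% on amiodarone, 4.97% on dabigatran and 3.61% on both drugs. The cytoplasmic actins that make up most of that sum differed less, Actb at 1787, 1711.93, 1757.45 and 1841.17 FPKM and Actg1 at 1110.38, 1034.66, 1140.73 and 1194.01 FPKM. Actc1, the cardiac actin, read 413.11, 174.69, 325.74 and 182.82 FPKM, and Acta1, the skeletal actin, at most 2.45 FPKM in any library. Tagln was 27.3, 17.6, 26.3 and 18.99% of Tagln and Tagln2 together, and Tagln2 was higher with amiodarone at 459.40 FPKM than with vehicle at 428.18. Cnn1 was 17.2% of the 3 calponins for vehicle, 12.4% for amiodarone and 16.3% for dabigatran, and its share was lowest for the combination. Myh11 gave another picture, with 27.6, 27.4, 26.4 and 24.5% of the 3 myosin II heavy chains, and Myh10 was lower with amiodarone as well, at 18.40 FPKM against 28.94. Myh9, the other nonmuscle chain, read 86.31, 75.84, 90.20 and 85.02 FPKM. Stretches of 50 bases that also occur in another gene's transcript made up 0.352% of the longest coding Acta2 transcript, against 14.2% for Actb and 56.7% for Actg1, so that the split of reads among actins rests more on estimation for the cytoplasmic forms.

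**Figure D3:**
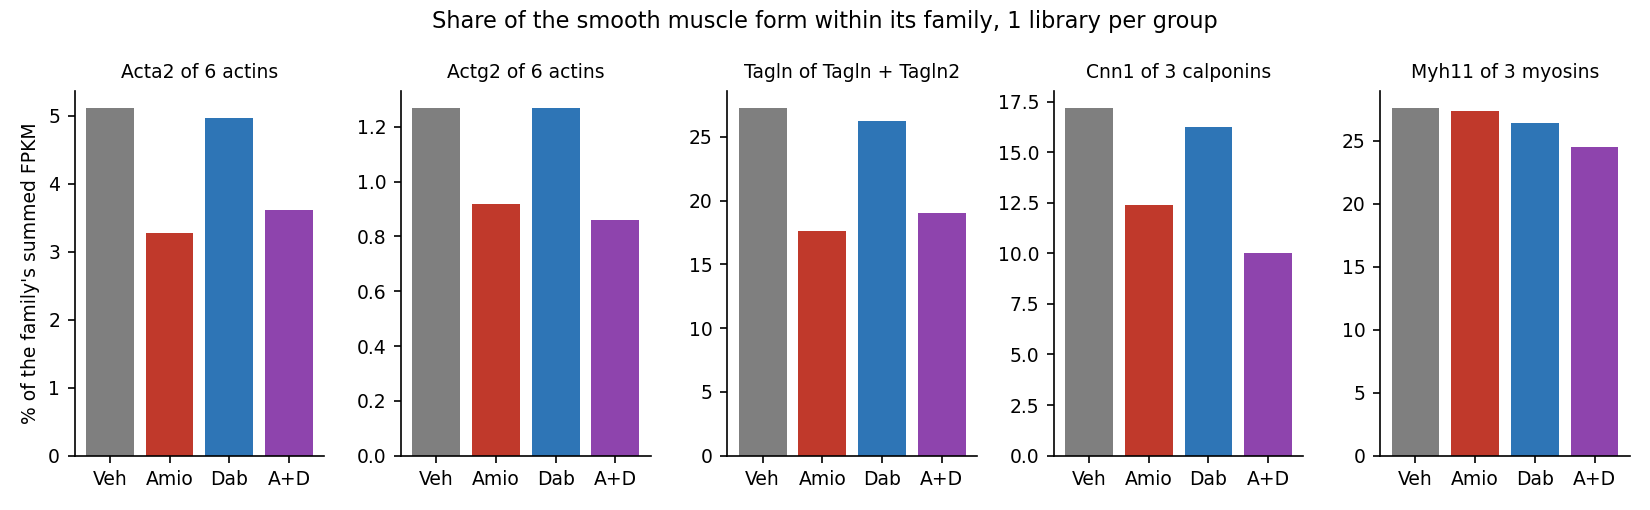
Share of each smooth muscle form in the summed FPKM of its family (vertical axis, %, from 0) in the 4 single libraries, without error bars. Acta2 goes from 5.11% with vehicle to 3.28% with amiodarone and Tagln from 27.3 to 17.6%, whereas Myh11 stays between 24.5 and 27.6%.

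Among 12 nonmuscle counterparts (actins, myosins, tropomyosins, calponins, transgelin and other cytoskeletal genes of most cells), 9 were lower and 3 higher beyond counting error with amiodarone than with vehicle. Their median was -0.12, against -0.41 for the contractile genes. Of all genes tested, 30.1% were lower and 19.6% higher there. With the combination against dabigatran, 4 of the 12 were lower and 7 higher with a median of 0.06, beside 23.5% and 19.5% of all genes tested. With dabigatran against vehicle 2 of the 12 were lower and 5 higher, beside 13.4% and 15.2%. With the combination against amiodarone 2 were lower and 8 higher, beside 15.0% and 21.2%. Cnn3 read 85.25, 80.17, 83.31 and 69.86 FPKM and Cnn2 248.84, 226.27, 256.62 and 283.45 FPKM. Of the striated relatives of Mylk and Lmod1, cardiac Mylk3 read 8.31, 6.97, 4.92 and 4.28 FPKM and Lmod2 12.75, 6.50, 7.45 and 5.0 FPKM, while skeletal Mylk2 stayed under 0.2 FPKM and Lmod3 read at most 1.85.

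Most of the 26 other genes of the contractile apparatus were lower with amiodarone than with vehicle too. Of them, 21 were lower beyond counting error and 2 higher, with a median of -0.40 and 4 at least 1.5-fold lower. For all genes tested, 30.1% were lower, 19.6% higher and 7.22% at least 1.5-fold lower. Hspb6, a small heat shock protein that takes part in relaxation, read 41.57, 23.11, 38.90 and 24.68 FPKM with an amiodarone to vehicle ratio of 0.556 (0.499 to 0.618). The tropomyosins, which lie along the actin filament, were Tpm1 at 466.41, 292.02, 377.63 and 282.16 FPKM and Tpm2 at 57.50, 37.73, 52.62 and 43.75 FPKM. Myl9, the regulatory light chain that Mylk phosphorylates, read 119.48, 81.81, 112.81 and 104.37 FPKM. Both libraries with amiodarone were below both without for these 4 genes, but Myl9 with the combination lay 1.28 times above amiodarone alone (1.19 to 1.36). Pgm5, a protein of adherens junctions and dense plaques, and Synm, an intermediate filament partner of desmin, stood at 0.629 and 0.678 of vehicle with amiodarone. Among the higher genes was Actn1, the nonmuscle α-actinin, at 1.13.

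In the other comparisons the wider apparatus was more divided. With dabigatran against vehicle, 6 of 26 were lower and 4 higher with a median of -0.05. For all genes tested the shares were 13.4% and 15.2% and the median 0.0006. Of the 26, Pln, phospholamban, a regulator of the calcium pump that is also a cardiac protein, was the lowest at 0.699 (0.643 to 0.760), followed by Tpm1 at 0.810, and Cald1, caldesmon, was the highest at 1.13. With the combination against amiodarone, 5 were lower and 10 higher with a median of 0.06, beside 15.0%, 21.2% and 0.03 for all genes tested. Csrp1 at 1.30, Ppp1r14a at 1.28, Itga8 at 1.26, Myl6 at 1.24 and Flna at 1.23 led the higher ones, of which Ppp1r14a encodes the inhibitor of myosin phosphatase and Myl6 the essential light chain. With the combination against dabigatran, 19 were lower and 4 higher with a median of -0.22, beside 23.5%, 19.5% and -0.01 for all genes tested. Hspb6 at 0.634, Synpo2 at 0.643, Pdlim3 at 0.669 and Pgm5 at 0.668 were the lowest of the apparatus genes.

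Transcriptional regulators of the programme did not share a direction, except that none was higher beyond counting error with the combination against dabigatran. Srf, serum response factor, read 25.65, 23.92, 30.87 and 23.00 FPKM for vehicle, amiodarone, dabigatran and the combination. Its ratio was 0.933 (0.870 to 0.9999) for amiodarone against vehicle and 0.745 (0.697 to 0.796) for the combination against dabigatran. The myocardin-related coactivators read 16.36, 14.44, 14.17 and 15.32 FPKM for Mkl1 and 9.59, 9.41, 10.47 and 9.53 FPKM for Mkl2. These 3 genes were nearer to their vehicle level with amiodarone than Myocd was. Klf4, which represses the contractile genes in vascular smooth muscle and is also expressed by many other lung cells, read 54.98, 103.24, 68.49 and 71.14 FPKM, highest with amiodarone alone at 1.88 times vehicle (1.80 to 1.96). Fhl2, a cofactor also abundant in heart, read 10.47, 5.16, 7.81 and 5.73 FPKM and Mef2c 8.36, 5.28, 8.69 and 5.97 FPKM, both lower in the libraries with amiodarone. Of 12 regulators, 7 were lower and 3 higher with amiodarone against vehicle, 3 lower and 5 higher with dabigatran against vehicle, 3 lower and 3 higher with the combination against amiodarone, and 8 lower and 0 higher with the combination against dabigatran. In the same order, the lower and higher shares of all genes tested were 30.1% and 19.6%, 13.4% and 15.2%, 15.0% and 21.2%, and 23.5% and 19.5%.

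Receptors through which smooth muscle is told to contract or relax were split as well. Of 11 found in the table, 9 reached 1 FPKM, of which 3 were lower and 2 higher with amiodarone than with vehicle. Those counts are near the shares of all genes tested, 30.1% lower and 19.6% higher. Tbxa2r, the contractile thromboxane receptor, read 6.58 FPKM on vehicle, 2.99 on amiodarone, 8.46 on dabigatran and 3.23 on both drugs, a ratio of 0.454 (0.353 to 0.581) without and 0.382 (0.302 to 0.479) with dabigatran. Ednra, the endothelin A receptor, read 23.95, 19.80, 24.67 and 19.49 FPKM. Counts of lower and higher receptors were 3 and 2 for dabigatran against vehicle, 5 and 1 for the combination against amiodarone, and 3 and 4 for the combination against dabigatran. In the same order the shares of all genes tested were 13.4% and 15.2%, 15.0% and 21.2%, and 23.5% and 19.5%.

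Markers of other cell types that share some of these genes or surround smooth muscle differed between libraries as well, and their part in the results above was not tested. Over all genes tested, 30.1% were lower with amiodarone than with vehicle and 19.6% higher. Of 9 pericyte markers, 2 were lower and 0 higher with amiodarone than with vehicle, and their summed level was 260.57, 254.42, 242.54 and 239.48 FPKM for vehicle, amiodarone, dabigatran and the combination. Of 11 fibroblast and myofibroblast markers with at least 1 FPKM (12 listed, Fap at 0.29 FPKM with vehicle), 8 were lower and 1 higher, with sums of 609.06, 483.71, 692.49 and 522.63 FPKM, and Col3a1 stood at 0.499 of vehicle. All 9 cardiac markers were lower, with sums of 1946.97, 1030.28, 1326.46 and 927.58 FPKM. The cardiac sum was also below vehicle with dabigatran alone, where 8 of 9 markers were lower and 0 higher. Of all genes tested in that comparison, 13.4% were lower and 15.2% higher, and the contractile genes were at 0.795 to 1.06. All 4 mesothelium markers were lower with amiodarone, with sums of 94.57, 46.3, 93.4 and 105.58 FPKM. That sum was highest with the combination, where the contractile genes were below vehicle.

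Airway epithelium, which lies next to airway smooth muscle, was low in the same library. All 7 of its markers with at least 1 FPKM (8 listed, Krt5 at 1 read in 3 of the libraries) were lower with amiodarone, with sums of 131222, 78486.9, 105608 and 102578 FPKM. Scgb1a1 made up most of each sum, at 124168, 73994.3, 99032.4 and 97785.7 FPKM. Endothelium and macrophages were not low in that library. Of 8 endothelial markers 2 were lower and 5 higher, with sums of 1186.22, 1280.03, 1386.82 and 1112.61 FPKM, and of 9 macrophage markers 0 were lower and 8 higher, with sums of 3577.64, 5812.06, 3899.37 and 5754.93 FPKM. Most of each macrophage sum was Lyz2, at 3396.43, 4906.82, 3692.63 and 4617.72 FPKM. Skeletal muscle markers were low throughout, summing to 40.98, 25.53, 43.57 and 17.8 FPKM, and Myh4 was at 0 in all libraries but that with dabigatran. Ckm made up most of each skeletal sum, at 34.2, 17.08, 31.55 and 12.28 FPKM.

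In the comparison of the combination with dabigatran the counts of lower and higher markers were 5 and 1 of 9 for pericytes, 8 and 0 of 11 for fibroblasts, 9 and 0 of 9 for cardiac muscle, 6 and 0 of 7 for airway epithelium, 0 and 1 of 4 for mesothelium, 8 and 0 of 8 for endothelium and 0 and 9 of 9 for macrophages. Over all genes tested, 23.5% were lower and 19.5% higher.

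**Figure D4:**
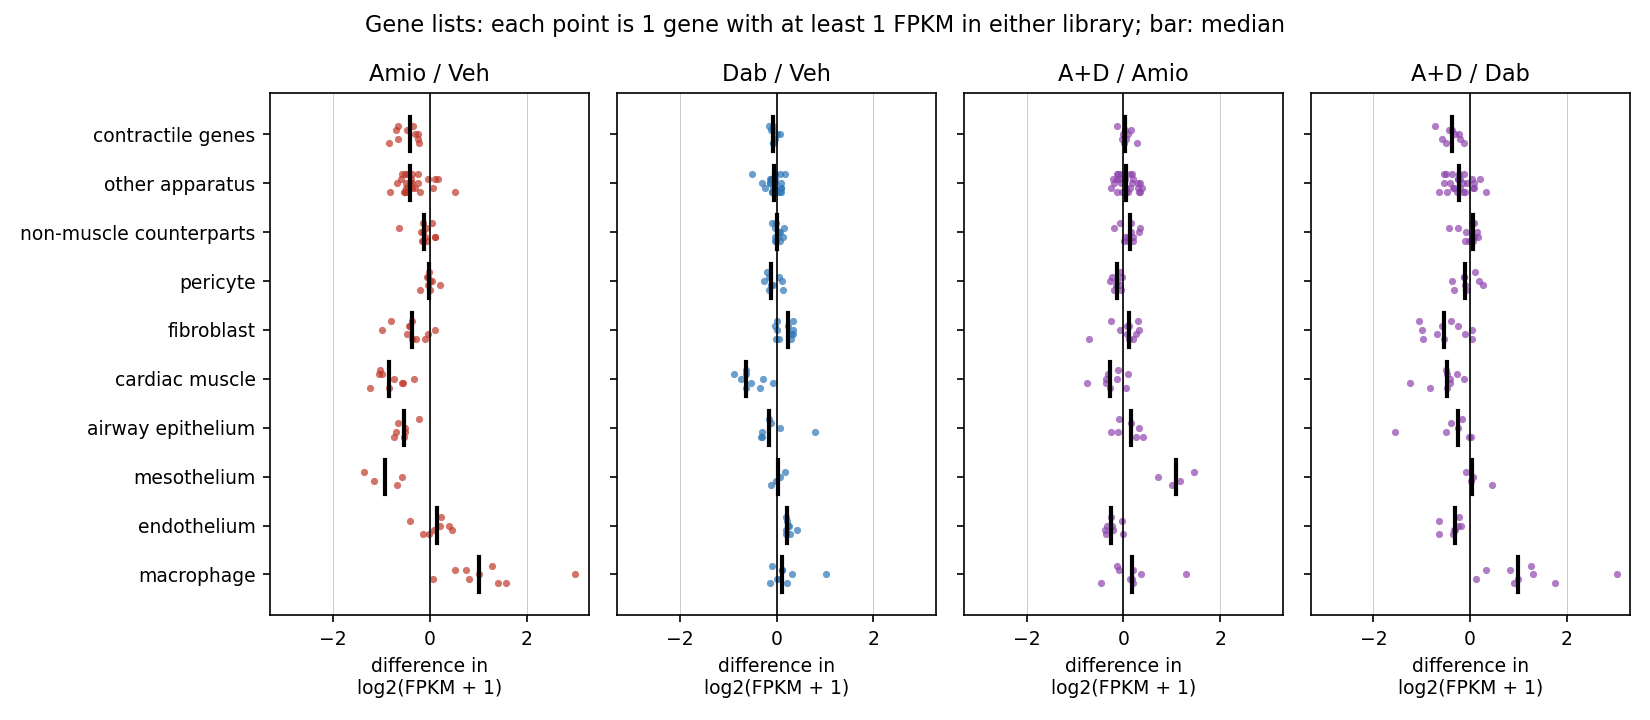
Difference in log2(FPKM + 1) (horizontal axis) for genes of 10 lists (rows) in the 4 comparisons. Each point is a gene reaching 1 FPKM in any library compared and each bar a list's median, which for the contractile genes is -0.41 (amiodarone over vehicle), -0.07 (dabigatran over vehicle), 0.03 (combination over amiodarone) and -0.37 (combination over dabigatran). The medians of the cardiac, airway and fibroblast lists are also below 0 in the first and last panels and the macrophage median is above 0.

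Genes outside the list with the most similar pattern over the 4 libraries were sought among 9117 genes with at least 5 FPKM in all of them. Likeness was the Euclidean distance between log2(FPKM + 1) values centred on their mean over the libraries and the mean profile of the 9 contractile genes above that level. The nearest was Cfap43 (distance 0.0218), with 9.61, 6.54, 9.07 and 6.80 FPKM, followed by Capsl (0.0236) with 22.18, 15.24, 21.14 and 16.07 FPKM, and both are genes known from ciliated cells. Zfp467, Plagl1 and Ppp1r12b came next, and then Mgat3, Ccdc85b, S1pr4, Zfp703 and 1190002N15Rik, the last at a distance of 0.0517. Ppp1r12b, a myosin phosphatase subunit of muscle, was the nearest of the contractile apparatus at 16.51, 11.82, 16.04 and 12.40 FPKM, and Synm was 27 and Nexn 54 in that order of 9117. Likeness over 4 libraries is loose, and it is given as a description.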

How the data were processed

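RNA-Seq of mouse left lung was performed with 1 library per group, and the label of each library gave its group. The authors mapped clean DNBseq reads to GRCm38.p6 with HISAT and to reference gene sequences with Bowtie2 and estimated expression with RSEM. They deposited, for 17780 genes, estimated counts of reads and a normalized value, read here as FPKM because its ratio to the counts follows total reads. Another 8 columns, means over 2 libraries, were not used. A count of 0 allows up to 3 reads.

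Ratios of FPKM were computed with Python 3.11.15, pandas 2.3.3, numpy 2.4.6 and SciPy 1.17.1. Exact Clopper-Pearson intervals (95%) used counts rounded to whole numbers, and reads are not independent molecules. Genes reaching 1 FPKM in any library compared were tested. Medians used log2(FPKM + 1), which understates low genes. A 1.5-fold difference was counted separately. The procedure was tested on simulated data. The genes and lists were chosen with earlier results of these data known. Named genes were all 10, up to 8 of the wider apparatus, up to 3 of each other list and paralogs of the 10, by the size of the difference, and the 10 genes of most similar pattern. Cfap43 and the other similar genes follow that rule, while Mkl1, Mkl2, Fap, Krt5 and Myh4 were named after their values were seen. Coordinates and promoters came from RefSeq (GRCm38.p6), with 17669 identifiers found, and exons from GENCODE M21. Alternatives were rescaling by median ratios (factors 1.01, 0.976, 1.01 and 1.002 for vehicle, amiodarone, dabigatran and the combination), scaling to equal sums as TPM, reads scaled to library totals, a pseudocount of 0.1, a minimum mean of 5 FPKM, no minimum and a fold of 2 and a smaller fold (a ratio of 0.8 or less). Some genes that this rule picks are not reported here.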

Additional observations from a re-analysis of the deposited data

Results flagged for a closer look

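Some genes lay beyond counting error in opposite directions for the same drug, depending on the other drug. Each pair below sets single libraries against each other, and the difference between the ratios was not tested. Both pairs for a drug draw on the same 4 libraries. Dabigatran against vehicle and the combination against amiodarone gave 0.946 and 1.22 for Acta2, and 0.928 and 1.11 for Tagln. The same comparisons gave 0.947 and 1.24 for Myl6, the essential light chain, and 0.915 and 1.16 for Tpm2, a tropomyosin. With equal summed FPKM the dabigatran to vehicle ratios of Acta2 and Tagln were 0.998 and 0.979, within counting error, so that for these genes the opposite directions were lost under that scaling. Of the 26 other apparatus genes, 6 were lower with dabigatran than with vehicle, and 3 with equal sums. Myl6 and Tpm2 were not among those 3, so that their opposite directions were lost as well. Amiodarone against vehicle and the combination against dabigatran gave 0.805 and 1.05 for Myl6, and 0.839 and 1.06 for Flna, the actin cross-linker filamin A.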

How the results depend on the processing

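With 1 library per group, no replicate could be left out and no spread between animals is known, so that the alternatives below speak of scaling and thresholds alone. No paired analysis was possible because the groups share 1 replicate number only. For amiodarone against vehicle, none of the 10 genes was 2-fold lower (0), their median of -0.41 was -0.38 with median-ratio rescaling, -0.39 as TPM, -0.48 with a minimum mean of 5 FPKM, -0.55 by reads scaled to library totals and -0.57 with a pseudocount of 0.1, and 4 apparatus genes were higher as TPM. For dabigatran against vehicle, as TPM 0 of the 10 were lower and 2 higher, and 3 apparatus genes were lower and 8 higher. Des as TPM was at 1.003, within counting error. Without rescaling, 1 gene of the 10 was at or below 0.8 of vehicle. For the combination against amiodarone, 2 of the 9 genes with at least 1 FPKM were lower by reads scaled to library totals. Myh11, at 0.945, left counting error under that scaling. In the same comparison, 8 apparatus genes were lower with median-ratio rescaling and 9 as TPM. For the combination against dabigatran, counts cover the 9 genes with at least 1 FPKM. Of these, 1 was 1.5-fold lower with median-ratio rescaling, 5 were at or below 0.8 of dabigatran and 0 were 2-fold lower. Myocd, at 0.472, was below the limit of 1 FPKM and is not in these counts. As shares of reads instead of FPKM, Acta2 made up 7.01, 4.44, 6.76 and 4.86% of the actins and Myh11 20.8, 21.3, 20.1 and 18.2% of the myosins with vehicle, amiodarone, dabigatran and the combination. For Lmod1 the amiodarone to vehicle ratio as TPM, 0.901, was within counting error. Of the ratios of single genes recomputed under these scalings, 111 kept their call as lower, higher or within counting error. Some of those within it crossed 1, as Cnn1 with dabigatran against vehicle, at 0.951 and as TPM at 1.003. Another 5 came within counting error, 3 left it, and 1, that of Des named above, crossed 1 and came within it. The causes were not tested, other than that TPM scaling follows the share of Scgb1a1 and the other abundant genes by construction.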
